A study of Mus musculus with 2 samples.

Results

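Aminoacyl-tRNA synthetases are the enzymes that join each amino acid to its own tRNA, the step that sets which amino acid a codon is read as. Mammalian cells hold a cytosolic set and a separate mitochondrial set, both encoded in the nucleus, and some of the cytosolic enzymes sit together in a multi-synthetase complex on scaffold proteins. The synthetase genes described here are the protein-coding genes of the RefSeq annotation of GRCm38.p6 whose symbol is 1 capital letter followed by ars and an optional 1, 2, a, b, l or l2, plus Eprs. This rule found 38 of 21887 protein-coding genes on the assembled nuclear chromosomes and used no measured value. Of these 38 genes, 21 encode cytosolic and 17 mitochondrial enzymes. Mitochondrial enzymes are those named by the suffix 2, and Tarsl2 was counted as cytosolic.

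The study made chromatin immunoprecipitation (ChIP) libraries from mouse bone marrow cells positive for ckit and sca1, surface proteins that enrich for blood stem and progenitor cells. One library was made with anti-Usp16, which binds an enzyme that removes ubiquitin from histone H2A, and 1 with IgG. All cells came from mice with loxP-flanked alleles of Usp16 and the Cre recombinase under the interferon-responsive Mx1 promoter; the labels give neither the age of the mice nor whether Cre had been induced, so the Usp16 status of the cells is not known. The file analysed here lists 5079 peaks called for the anti-Usp16 library, 5046 of them on the assembled chromosomes, and the IgG signal was not analysed here. Each peak carries the peak caller's score, which has no stated unit and a lowest value of 50, so a missing peak means only that none was listed at that score or above. With 1 library per antibody and no replicates, no difference below was tested, and read depth is unknown. The labelled cell type was not checked against marker genes, since a peak list measures no expression.

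A gene was counted as carrying a gene-end peak when a peak reached, by 1 bp or more, the 1 kb before or after an annotated end. Of the 38 synthetase genes 18 carried one (47.4%, exact Clopper-Pearson 95% interval 31.0 to 64.2%), against 13.9% of all protein-coding genes (3033 of 21887). Coordinates are given on mm10. The 18 genes were reached by 18 distinct peaks, 1 for each gene. Among other genes of protein synthesis, 36 of 78 mitochondrial ribosomal protein genes (46.2%) and 51 of 82 cytosolic ribosomal protein genes (62.2%) carried one. The interval of the synthetase genes holds both of these shares and lies above that of all protein-coding genes. Intervals cover counting error only, and genes are not independent replicates.

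**Figure D1:**
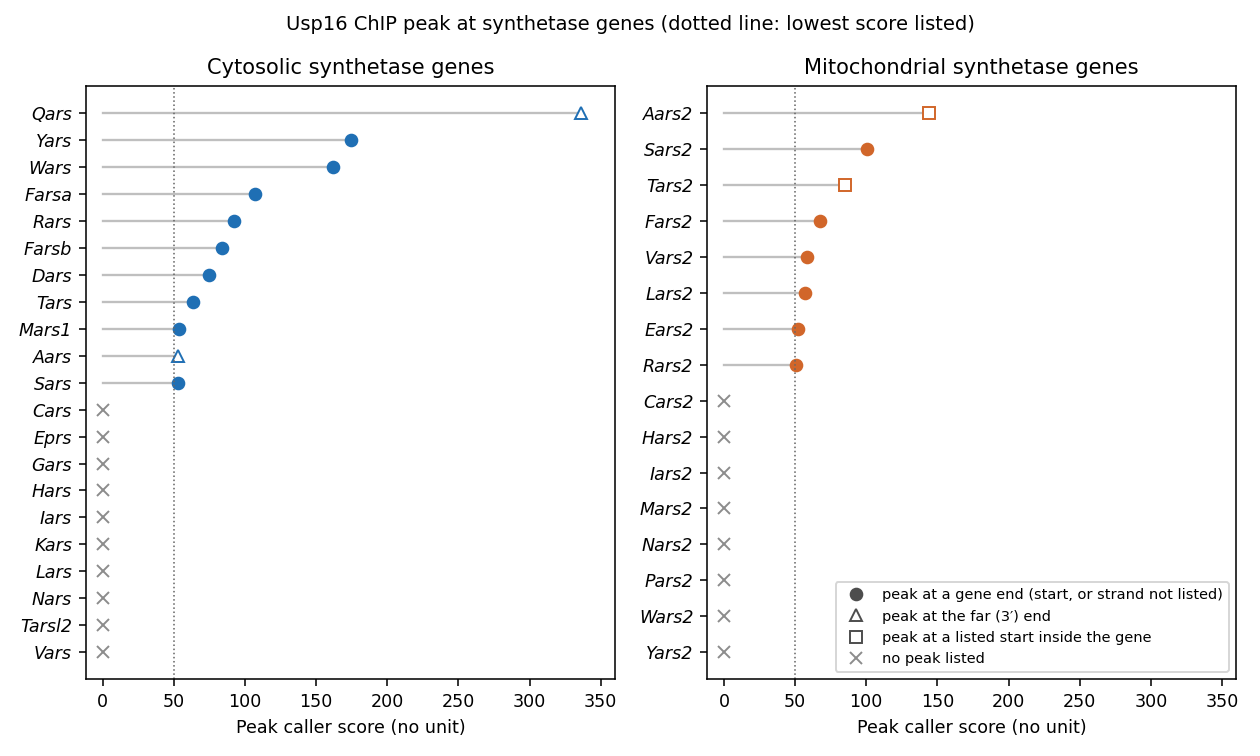
Peak caller score (x axis, no unit) of the peak at the cytosolic (left) and mitochondrial (right) synthetase genes named in the text. Crosses at 0 mark genes with no listed peak, triangles a peak at the far end of the gene and squares a peak at a listed transcription start inside the gene. The highest score, 336, belongs to a peak beyond the far end of Qars, and 5 of the 8 mitochondrial scores shown lie between 50.6 and 67.3, near the lowest listed score of 50.

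The peaks at synthetase genes were mostly of ordinary height for this list. Their median score was 65.6, with a range of 50.6 to 336, against a median of 75.6 over the highest-scoring gene-end peak of each of the 3033 protein-coding genes that carried one. Of the 18 peaks 8 scored at or above the median of the whole list, 69.9 (44.4%), against 57.9% over all protein-coding genes with a peak (1757 of 3033). Such a peak was thus carried by 21.1% of the 38 synthetase genes, against 8.03% of all protein-coding genes. Their median width was 759 bp, against 801 bp over all protein-coding genes with a peak. Widths ran between 544 bp at Aars and 1620 bp at Mars1.

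Among the cytosolic enzymes, 11 of 21 genes had a peak at an end (52.4%, interval 29.8 to 74.3%). The highest-scoring peak that covered an end of a synthetase gene was at Yars, the tyrosine enzyme, with a score of 174 (chromosome 4, 129189278 to 129190252). Its midpoint lay 31 bp from the lower annotated end of Yars and 138 bp upstream of the listed transcription start. Wars, the tryptophan enzyme, had a peak of score 162 (chromosome 12, 108893939 to 108894623), with its midpoint 106 bp from the upper end of the gene. By score, the peak at Yars ranked 299 and that at Wars 380 among the 5046 peaks.

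The phenylalanine enzyme of the cytosol is built of 2 kinds of subunit, and the genes of both carried peaks. Farsa, the alpha subunit, had a score of 107 (chromosome 8, 84856560 to 84857256) and Farsb, the beta subunit, 83.8 (chromosome 1, 78488626 to 78489321). The peaks were nearly equal in width, 697 bp at Farsa and 696 bp at Farsb, and both covered the gene's start. Fars2, the single-chain mitochondrial phenylalanine enzyme, had a peak of score 67.3 (chromosome 13, 36117489 to 36118041). Phenylalanine was thus the amino acid with a peak at all 3 of its genes.

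Rars, the arginine enzyme, followed with a score of 92.4 (chromosome 11, 35834332 to 35834881) and Dars, the aspartate enzyme, with 74.7 (chromosome 1, 128416796 to 128417652). Tars, the threonine enzyme, scored 63.7 (chromosome 15, 11399608 to 11400261), while its close relative Tarsl2 carried no peak, the nearest midpoint being 368 kb away. Mars1, the methionine enzyme, had a score of 53.8 over a peak of 1620 bp whose midpoint was 0.5 bp from the gene's start (chromosome 10, 127310977 to 127312596). Sars, the serine enzyme, had 52.5 (chromosome 3, 108444549 to 108445521), close to the lowest score listed.

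The peaks counted for Qars, the glutamine enzyme, and Aars, the alanine enzyme, lay beyond the far end of the gene, away from its start. The peak counted for Qars had the highest score of the 18, 336 (chromosome 9, 108516537 to 108517461, rank 68), but its midpoint was 1058 bp beyond the far end of Qars and 88 bp from the listed start of Qrich1, a glutamine-rich protein gene. The peak counted for Aars scored 52.6 (chromosome 8, 111055984 to 111056527), with its midpoint 686.5 bp beyond the far end of Aars and 83.5 bp from the start of Exosc6, a gene of an RNA exosome subunit. Neither covered the end of the synthetase gene itself, and no peak was listed within 1 kb of the listed start of Qars or Aars. Without them, Yars had the highest score.

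The cytosolic enzymes were also grouped by membership of the multi-synthetase complex, as known from textbooks. Of its 8 enzyme genes 4 carried a gene-end peak, namely Dars, Mars1, Qars and Rars, while Eprs, Iars, Kars and Lars did not. Outside the complex 7 of 13 cytosolic genes carried one. By catalytic class, 9 of 18 genes of class I and 9 of 19 genes of class II carried a peak, with Eprs, which holds one domain of each class, counted in neither. Over all protein-coding genes 13.9% carried one. At listed starts the counts were 2 of 6 genes in the complex and 5 of 8 outside it, and 6 of 13 of class I and 9 of 14 of class II. Of all protein-coding genes with a listed start, 14.2% had a peak there. None of these differences was tested, and the gene-end counts include Qars and Aars.

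Among the mitochondrial enzymes, 7 of 17 genes had a peak at an end (41.2%, interval 18.4 to 67.1%). The highest-scoring was at Sars2, the serine enzyme, with 101 (chromosome 7, 28741858 to 28742648). The other 6 scored between 50.6 and 67.3: below Fars2, Vars2, for valine, had 58.6 (chromosome 17, 35667160 to 35667976). Lars2, for leucine, had 56.8 (chromosome 9, 123366644 to 123367258) and Ears2, for glutamate, 52.0 (chromosome 7, 122066855 to 122067672). Rars2, for arginine, had 50.6 (chromosome 4, 34614335 to 34615061), just above the lowest score listed. Apart from Sars2, every mitochondrial gene-end peak scored below the list's median of 69.9.

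Aars2 and Tars2, further mitochondrial genes, had a peak at a transcription start that lies inside the annotated gene, which the windows at gene ends missed. For Aars2, the alanine enzyme, a peak of score 144 (chromosome 17, 45506614 to 45507140) had its midpoint 36 bp from a listed start but 3.362 kb from the nearer gene end. For Tars2, the threonine enzyme, a peak of score 84.7 (chromosome 3, 95754693 to 95755325) had its midpoint 32 bp from the listed start and 1.356 kb from the gene end. Both scored above the list's median, and Aars2 had the highest-scoring peak of the mitochondrial set.

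Transcription starts and strands were listed for 28 of the 38 genes, which allowed the start to be told from the far end, and the other 10 genes enter the counts at gene ends only. Of the 28 genes 15 had a peak within 1 kb of a listed start (53.6%, interval 33.9 to 72.5%), against 14.2% of protein-coding genes with a listed start (2483 of 17492). All 15 peaks covered the start itself, as did 89.4% of the 2483. Their midpoints lay between 276.5 bp upstream at Tars and 285 bp downstream at Sars2, with 8 upstream and 7 downstream. The median offset was -0.5 bp, against -59.5 bp over all protein-coding genes with a start peak. Of 14 synthetase genes over 10 kb with a gene-end peak and a listed strand, 13 (92.9%) had it at the start end only, the same share as over all such protein-coding genes (1627 of 1752, 92.9%).

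**Figure D2:**
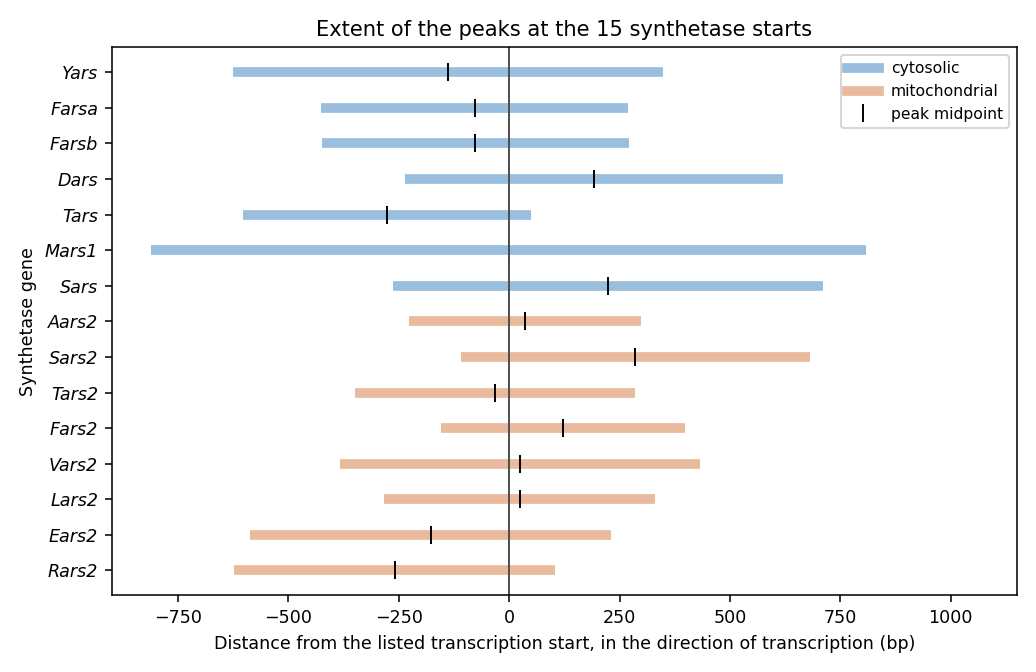
Extent of the peak (bars) and its midpoint (ticks) at the 15 synthetase genes with a peak at a listed start, as distance in bp along the direction of transcription, with negative values upstream. Every bar crosses 0, the listed start, and the widest is that of Mars1 at 1620 bp.

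The order of the cytosolic and mitochondrial sets depended on where peaks were counted. At gene ends 52.4% of cytosolic and 41.2% of mitochondrial genes carried a peak, a difference of 11.2 percentage points. At listed starts it was 7 of 14 cytosolic genes and 8 of 14 mitochondrial genes (57.1%), a difference of -7.14 points. Counting a peak at either place gave 11 of 21 cytosolic and 9 of 17 mitochondrial genes, a setting added after seeing the data in which 14.7% of all protein-coding genes carried a peak. The cytosolic counts at gene ends and at either place include Qars and Aars. Their peaks lay beyond the far end, near the starts of Qrich1 and Exosc6. With the peak midpoint required within 1 kb, which leaves out Qars, 10 of 21 cytosolic and 7 of 17 mitochondrial genes carried a gene-end peak. That difference was 6.44 points, and 13.1% of all protein-coding genes carried one. The exact intervals of the 2 sets overlap at gene ends (29.8 to 74.3% and 18.4 to 67.1%) and at listed starts (23.0 to 77.0% and 28.9 to 82.3%). With the peaks at or above the median score only, 7 of 21 cytosolic (33.3%) and 1 of 17 mitochondrial genes (5.88%) carried a gene-end peak. Over all protein-coding genes 8.03% did. This count leaves out the peaks of Aars2 and Tars2 at starts inside the gene, which both scored above that median. None of these differences was tested.

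The cytosolic peaks had the higher median score at both places. At gene ends 7 of 11 cytosolic peaks and 1 of 7 mitochondrial peaks scored at or above the list's median, with median scores of 83.8 for cytosolic and 58.6 for mitochondrial genes. At listed starts the counts were 4 of 7 cytosolic and 3 of 8 mitochondrial peaks, and the medians 74.7 and 63.0. Over all protein-coding genes with a peak, 57.9% at gene ends and 57.7% at listed starts scored at or above the list's median. Their medians were 75.6 and 75.5. The gene-end scores ranged over 52.5 to 336 for cytosolic and 50.6 to 101 for mitochondrial genes, and the 336 is the Qars peak near the start of Qrich1. The ranges of the start peaks also overlapped, with 52.5 to 174 for cytosolic and 50.6 to 144 for mitochondrial genes. The difference between cytosolic and mitochondrial scores was not tested.

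**Figure D3:**
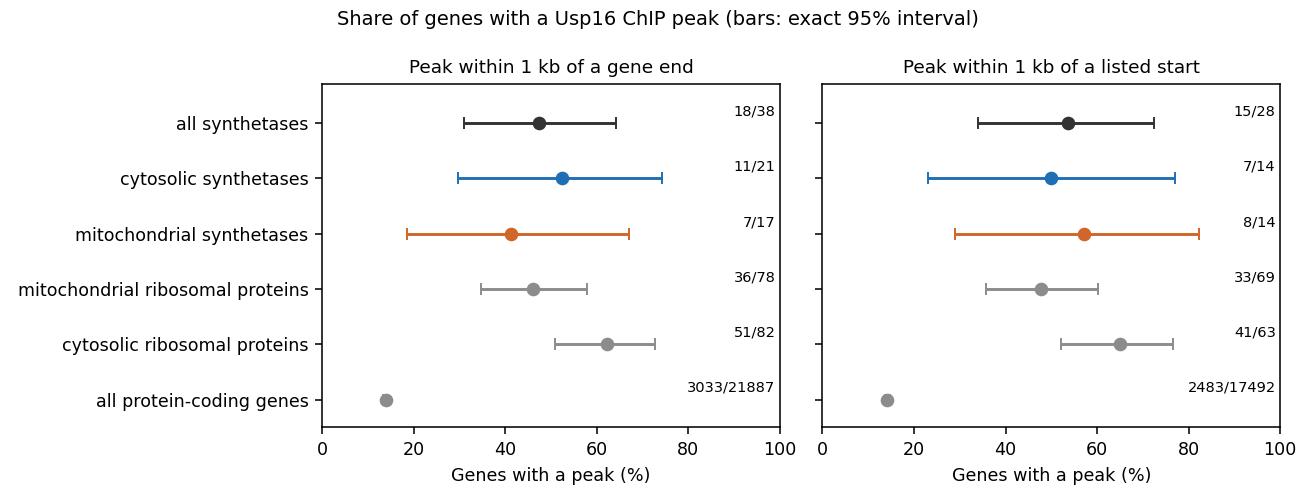
Share of genes (x axis, percent) with a peak within 1 kb of a gene end (left) and of a listed transcription start (right), with exact 95% intervals as bars and the counts printed at the right. The synthetase shares lie near those of the ribosomal protein genes and above the 13.9% and 14.2% of all protein-coding genes, and the cytosolic and mitochondrial sets exchange their order between the panels.

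Many of these peaks lay where a synthetase gene meets another gene. Of the 18 gene-end peaks 10 also reached an end of another protein-coding gene (55.6%), against 24.9% of the 2466 peaks at ends of protein-coding genes. With genes of any kind as partner the count was 12 of 18 (66.7%), against 39.9%. The additional partners were the lncRNA gene 1700122E12Rik at Farsa and the pseudogene Gm6283 at Mars1, and none of the 18 peaks reached a tRNA gene. The shares over all protein-coding genes count a shared peak once, however many genes carry it, so they are not shares of genes. A different count took genes with an end of another protein-coding gene within 1 kb of either of their own, wherever the peak lay. Of the 18 synthetase genes with a peak 55.6% had such a neighbour, against 47.1% of the 3033 protein-coding genes with a peak. These are not shares of genes with a shared peak. Qars had no such neighbour though its peak reached Qrich1, and Mars1 had one though its peak reached no other protein-coding gene. By compartment, 4 of 11 cytosolic peaks and 6 of 7 mitochondrial peaks reached another protein-coding gene, and Lars2 was the exception among the mitochondrial genes.

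In 5 cases the peak lay within 1 kb of the starts of both genes, which are read in opposite directions. These pairs were Yars with S100pbp, Sars2 with Mrps12, which encodes a protein of the small mitochondrial ribosomal subunit, Fars2 with Lyrm4, a gene of iron-sulfur cluster assembly, Rars2 with Orc3, a subunit gene of the origin recognition complex, and Ears2 with Ubfd1. At Vars2 the peak covered its start and reached the far end of Gtf2h4, a subunit gene of the transcription factor TFIIH. For Wars with Wdr25 the strand was not listed. Peaks at Qars and Aars are those already described at the starts of Qrich1 and Exosc6, and covered no end of the synthetase gene. In the other pairs a peak cannot be assigned to 1 of the genes.

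A close neighbour was not enough for a listed peak. Of the 17 synthetase genes with an end of another protein-coding gene within 1 kb of their own, 10 carried a peak (58.8%), and of the 21 without such a neighbour 8 did (38.1%). Over all protein-coding genes the shares were 26.4% with and 9.74% without a close neighbour. Among cytosolic genes, 4 of 7 with and 7 of 14 without a close neighbour carried one, and among mitochondrial genes 6 of 10 with and 1 of 7 without. Hars and Hars2, the histidine enzymes of the 2 compartments, which overlap at one end, carried none.

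The sequences outside the annotated genes next to the start are shown for the 6 members with the highest-scoring gene-end peak over a listed promoter, to show the sequence that borders the annotated gene on its start side. They are from RefSeq (GRCm38.p6), read 5′ to 3′ on the strand of the synthetase gene and end at the base before its annotated first base. Capitals mark matches, on either strand, to 4 short motifs, described after the sequences. The stretches of Yars (chr4:129189666-129189733, plus strand), Sars2 (chr7:28741822-28741956, plus strand) and Fars2 (chr13:36117358-36117427, plus strand) are the whole gap to the neighbouring gene, while those of Farsa (chr8:84856736-84856968, plus strand), Farsb (chr1:78488898-78489147, minus strand) and Dars (chr1:128417417-128417666, minus strand) reach as far as the listed window.
Yars: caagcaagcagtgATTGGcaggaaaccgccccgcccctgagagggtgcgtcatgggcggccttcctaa
Farsa: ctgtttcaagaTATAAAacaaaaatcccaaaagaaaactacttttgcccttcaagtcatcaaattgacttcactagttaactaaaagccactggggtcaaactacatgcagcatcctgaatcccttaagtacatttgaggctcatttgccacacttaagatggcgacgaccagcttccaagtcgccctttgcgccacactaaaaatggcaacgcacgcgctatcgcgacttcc
Sars2: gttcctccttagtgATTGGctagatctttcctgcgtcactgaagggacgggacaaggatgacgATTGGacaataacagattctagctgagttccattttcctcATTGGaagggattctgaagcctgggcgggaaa
Farsb: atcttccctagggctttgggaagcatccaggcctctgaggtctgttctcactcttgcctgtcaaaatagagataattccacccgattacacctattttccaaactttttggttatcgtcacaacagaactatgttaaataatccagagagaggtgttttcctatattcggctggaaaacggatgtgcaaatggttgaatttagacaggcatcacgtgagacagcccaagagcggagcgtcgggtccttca
Dars: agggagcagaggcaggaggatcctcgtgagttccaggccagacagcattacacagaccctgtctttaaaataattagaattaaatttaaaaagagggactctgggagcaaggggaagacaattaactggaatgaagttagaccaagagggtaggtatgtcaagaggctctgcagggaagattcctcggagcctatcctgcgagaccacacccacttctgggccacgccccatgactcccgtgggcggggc
Fars2: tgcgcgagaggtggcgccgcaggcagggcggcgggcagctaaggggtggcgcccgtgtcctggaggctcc
The peaks covered all 68 bases of the Yars stretch, all 233 of Farsa and all 250 of Farsb. They covered 236 of 250 bases at Dars and 99 of 135 at Sars2. At Fars2 the peak covered none of the 70 bases and lay wholly inside the gene.

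The motifs searched were TATAAA (core of the TATA box), CCAAT (bound by NF-Y), CCGGAAG (core of ETS factor sites) and GCGCATG (part of the NRF1 motif), on both strands, and none of the 4 contains another. A CCAAT match stood once in the Yars stretch and 3 times in that of Sars2, and a TATAAA match once in that of Farsa, while those of Farsb, Dars and Fars2 held none. In the whole 300-base promoter windows, 13 of 28 synthetase genes held CCAAT (46.4%), against 39.0% of all protein-coding promoters. CCGGAAG was held by 9 of 28 (32.1%), against 11.9% of all promoters and 25.8% of those with a start peak. TATAAA was held by 3 of 28 (10.7%), against 13.3%, and GCGCATG by 3 of 28 (10.7%), against 4.89%. The 3 promoters with TATAAA, those of Aars2, Farsa and Tars2, belong to genes with a start peak. Over all protein-coding genes TATAAA stood in 6.93% of promoters with a start peak and 14.4% of those without. Aars2 has 2 listed starts but entered the promoter values with 1 window, which may not be that of the start with the peak. A match describes letters in the window and shows no bound factor.

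Synthetase promoters with and without a listed peak had similar CpG content. The ratio of observed to expected CpG had a median of 0.74 in the 15 promoters with a start peak (0.40 to 1.24) and of 0.69 in the 13 without one (0.55 to 1.16). Over all protein-coding genes the medians were 0.82 with and 0.48 without a start peak. The median GC content was 56.7% in synthetase promoters with a start peak and 59.0% in those without, against 60.3% and 55.3% over all protein-coding genes. The 2 synthetase groups overlapped over most of their range, and the highest ratios were at Mars1, with a peak, and Eprs, without one (1.24 and 1.16).

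**Figure D4:**
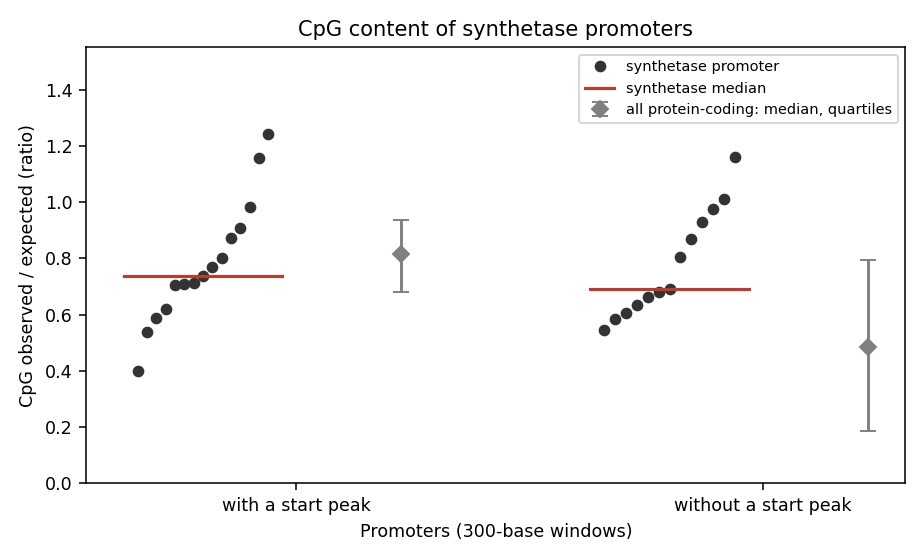
Ratio of observed to expected CpG (y axis) in the 300-base promoter windows of synthetase genes with (left) and without (right) a start peak, 1 point per gene, with the median as a line. Diamonds with bars give the median and quartiles of all protein-coding promoters. The synthetase medians are 0.74 and 0.69, while those of all protein-coding promoters are 0.82 and 0.48.

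No gene-end peak was listed for 20 synthetase genes. Apart from Tars2 and Aars2, the nearest peak midpoints were at Cars2, the mitochondrial cysteine enzyme (4.81 kb), Vars, the cytosolic valine enzyme (4.97 kb), and Hars (21.9 kb). The farthest were at Nars, for asparagine (588 kb), Eprs, which charges glutamate and proline (579 kb), and Iars2, the mitochondrial isoleucine enzyme (504 kb). Eprs and Iars2 lie close together on chromosome 1. The others were Cars, Gars, Iars, Kars, Lars and Tarsl2 among cytosolic genes and Hars2, Mars2, Nars2, Pars2, Wars2 and Yars2 among mitochondrial genes. Of the 20 genes 10 were farther than 100 kb from any peak midpoint, against 52.8% of the 18854 protein-coding genes without a gene-end peak. On chromosome 18, which holds Hars, Hars2, Lars and Nars, 155 peaks were listed and none of the 4 genes carried one. Over all chromosomes 13.9% of protein-coding genes and 47.4% of the 38 synthetase genes carried one. The count of none among 4 genes was not tested, and Hars and Hars2 overlap at one end. No start was listed for any of the 4 genes, so a peak at a start inside them could not be counted.

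Seen by amino acid, phenylalanine, arginine and serine were among those with a gene-end peak at both their cytosolic and their mitochondrial enzyme. For 7 amino acids, cysteine, glycine, histidine, isoleucine, lysine, asparagine and proline, no gene of the charging enzyme carried one. Glycine and lysine each have a single gene, Gars and Kars, whose products serve both compartments, and neither carried a peak. Glutamine has no mitochondrial synthetase gene in the list, since mitochondria make glutaminyl-tRNA by amidation. Of the amidation genes Gatb carried a peak of score 57.9, which also reached an end of Gm3740, and Qrsl1 and Gatc did not.

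Other genes of tRNA charging and use, in 7 lists by role, carried gene-end peaks at 19 of 47 genes (40.4%, interval 26.4 to 55.7%), against the same 13.9%. Of the 3 scaffold genes of the multi-synthetase complex, Aimp1 (score 137) and Eef1e1 (84.9) carried one and Aimp2 did not. Elongation factors, which bring charged tRNA to the ribosome, and their exchange factors carried them at 6 of 7 genes. These were Eef1b2 (192, a peak shared with Ndufs1), Tsfm (168), Eef1d (154), Tufm (129), Eef1g (82.1) and Eef1a1 (63.9), with Eef1a2 the exception. The peaks at Aimp1, Eef1d and Eef1g also reached an end of Tbck, Tigd5 and Tut1, in that order, and that at Tufm an end of Gm46001.

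Genes that free peptidyl-tRNA or remove wrongly joined amino acids carried a peak at 3 of 7 genes. Among them were the peptidyl-tRNA hydrolase gene Ptrh2 (95.2) and the related Ptrhd1 (132), and both shared their peak with another gene. Of the 2 genes for charging selenocysteine, Sepsecs carried one (77.1) and Pstk did not, and Mtfmt, which formylates the mitochondrial initiator tRNA, had none. Genes of tRNA maturation and export carried a peak at 3 of 17 genes, the tRNA ligase gene Rtcb (193) and the RNase P subunit genes Rpp38 (122) and Rpp14 (75.6). This share of 17.6% has an interval of 3.80 to 43.4%, which holds the 13.9% of all protein-coding genes. Of the 7 lists only the elongation factors had an interval that lay above 13.9% (42.1 to 99.6%), and the intervals of all others held it. In the amino acid response, which is switched on by uncharged tRNA, 3 of 7 genes carried one: Ddit3 (64.5), Sesn2 (61.1) and Atf4 (59.9), all below the list's median score of 69.9. The peaks at Ddit3, Rpp38 and Rpp14 also reached an end of Mbd6, Acbd7 and Htd2, in that order. The sensor kinase gene Eif2ak4 and the target genes Asns, Chac1 and Trib3 carried none.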

How the data were processed

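The authors deposited 1 list of peaks from the anti-Usp16 library, made by MACS in Galaxy per the file headers. The MACS version, its settings and any use of the IgG library are unstated, that is, not given in the sources used here. Bowtie, Picard and the build mm10 are named in the submitters' processing notes. The score of a peak, as deposited, comes from the peak caller and served only to rank, filter and describe peaks within this list. Positions are 1-based, and distances were measured from peak midpoints. Gene ends came from a RefSeq table of GRCm38.p6 (mm10), and starts, strands and promoter sequences (250 bases before to 50 after a start) from a RefSeq promoter table that held 28 of the 38 genes. A peak counted for a gene by an overlap of 1 bp or more with the window of 1 kb to either side of an end or start. Overlaps were computed with Python 3.11.15, pandas 2.3.3, numpy 2.4.6 and scipy 1.17.1, figures drawn with matplotlib 3.10.9, and the overlap step was tested on simulated data. Shares have exact Clopper-Pearson 95% intervals.

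The rule names all synthetase genes with a peak, the genes that share it, and all genes without one, though some genes that it selects are counted but not reported here by name, with promoter sequence for the 6 highest-scoring. Members, lists and motifs were chosen with earlier results of these data known. Alternatives were windows of 500 bp and 5 kb, the peaks at or above the median score, other overlap criteria, starts only, merged peaks, Gars and Kars left out, and peaks shared with other genes left out.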

Additional observations from a re-analysis of the deposited data

How the results depend on the processing

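Of 47 recomputed values 37 kept their direction and, for counts, stayed within 1.5 times the value given. Values other than counts had no such limit. Some could not change: each of the 18 genes had 1 distinct peak, so counting shared peaks once altered nothing. The window of 500 bp gave 17 synthetase genes with a gene-end peak, against 13.0% of all protein-coding genes. That of 5 kb gave 22, against 18.3%. The midpoint and 50% overlap criteria each gave 17, against 13.1%. Merged peaks gave 18, with no share of all protein-coding genes given. With the peaks at or above the median score, 8 of 38 synthetase genes carried a peak (8.03% of all protein-coding genes), 7 cytosolic and 1 mitochondrial. Without peaks that also reach another gene, 5 of 21 cytosolic genes and 1 of 17 mitochondrial genes remained in the count. The share of all protein-coding genes is not given for this setting, so these counts cannot be set against it. At listed starts only, which cover fewer genes, 7 of 14 cytosolic synthetase genes and 12 of 35 other genes of tRNA charging carried a peak. Of all protein-coding genes with a listed start 14.2% did. The cytosolic minus mitochondrial difference changed sign to -1.68 percentage points with the window of 5 kb, -7.14 at listed starts and -0.56 with ends or starts; it ranged between 6.44 and 27.5 points otherwise. No paired analysis was possible because there is 1 library per antibody and 1 peak list. The lowest listed score of 50 and the unknown depth limit what an absent peak can show.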

Other observations

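Nuclear tRNA genes were counted in the same way, over 402 named by anticodon, of which 151 (37.6%) had a peak within 1 kb of an end. No tRNA gene of the mitochondrial chromosome is among them. They are set beside the synthetase genes of both compartments by amino acid only, not as the tRNAs that each enzyme charges. For histidine, neither synthetase gene carried a gene-end peak and neither did any of 11 tRNA genes, and for cysteine 2 of 56 tRNA genes did (3.57%). The other 5 amino acids with no peak at a synthetase gene had tRNA shares between 23.1% for lysine and 62.5% for proline. The highest tRNA shares were 66.7% for arginine (16 of 24) and 63.6% for serine (14 of 22). Phenylalanine, with a gene-end peak at all 3 of its synthetase genes, had 3 of 7 (42.9%). Glutamine had 3 of 16 (18.8%). Neighbouring tRNA genes can share a peak and near-identical copies make read assignment uncertain, so these are values of 1 list with no test.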
